A study of Homo sapiens with 12 samples.

Results

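The genes described here are 40 listed genes of the hypoxia response and of glycolysis, taken by symbol from the 33694 human identifiers of the deposited count files. All 40 symbols were found, and 38 had enough counts to be tested. They were split by role into 19 genes of the hypoxia-inducible factor (HIF) arm and 21 of the glycolysis arm. The HIF arm held 2 HIF subunits, 2 prolyl hydroxylases and 15 HIF targets, and the glycolysis arm held 2 glucose transporters, 15 glycolytic enzymes and 4 genes of lactate handling.

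RNA was measured in 2 melanoma cell lines: A375, an established human line that carries an activating BRAF mutation, and A375-BIR, which the labels describe as resistant to BRAF inhibition. Every group was kept for 48 h either in 200 nM dabrafenib, a drug that blocks mutant BRAF, or in its solvent DMSO at 0.1%. The groups used were A375-BIR with dabrafenib (3 libraries), A375-BIR with DMSO (3 libraries), A375 with dabrafenib (3 libraries) and A375 with DMSO (1 library). The labels name biological replicates but not separate resistant clones, and A375-BIR is 1 line.

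The libraries count tags near the 3′ end of transcripts, and their gene counts ranged from 198690 to 1999840 with a median of 570083. Levels are given in CPM, counts scaled to a common library total, and 3 counts, the limit that a count of 0 allows, correspond to 1.5 to 15.1 CPM of a library's raw total. Of 12 deposited libraries, 2 of A375 with DMSO list mouse identifiers and entered no comparison. The remaining A375 DMSO library carries another run stamp than the other 9 human libraries, so in every comparison with it run and group cannot be told apart. Mitochondrial transcripts took 4.88% to 7.21% of gene counts in A375-BIR with dabrafenib, 4.63% to 5.49% in A375-BIR with DMSO, 10.7% to 15.1% in A375 with dabrafenib and 15.1% in A375 with DMSO. Of 7 melanocyte lineage markers, summed levels were 215 to 313 CPM in A375-BIR with dabrafenib, 196 to 212 CPM in A375-BIR with DMSO, 2843 to 3374 CPM in A375 with dabrafenib and 1442 CPM in A375 with DMSO. MLANA and TYR had no counts in either A375-BIR group, and PMEL had none in A375-BIR with dabrafenib. MLANA had none in the A375 DMSO library either. The 3 endothelial markers together reached at most 1.01 CPM in any library, the 4 fibroblast markers at most 20.7 CPM and the 3 leukocyte markers at most 46.6 CPM. Whether these differences play a part in the results below was not tested.

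HIF is a transcription factor made of an oxygen-regulated alpha subunit, such as HIF1A or EPAS1 (HIF-2 alpha), and a constant beta subunit. Prolyl hydroxylases such as EGLN1 mark the alpha subunits for degradation when oxygen is present, so that HIF protein is set largely after transcription. Its targets include genes for glucose uptake and glycolysis, for blood vessel growth and for removal of mitochondria. In BRAF-mutant melanoma cells, glycolysis is known to depend on BRAF signalling, and BRAF inhibitors are known to lower it. The question the design poses for these genes is how their RNA levels change with dabrafenib in the sensitive and in the resistant line.

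HIF binds DNA at a short core, ACGTG or GCGTG. The sequences below are shown because several results below turn on these 4 genes, ANKRD37 and BNIP3 of the HIF arm and PGK1 and GAPDH of the glycolysis arm. Each is the RefSeq promoter window of 300 bases (250 before and 50 after the start, build GRCh38.p14), read 5′ to 3′ on the gene's strand. The start is the one in the RefSeq table and need not be the outermost one: it lies inside the GENCODE 29 gene by 820 bases for ANKRD37, 90 for BNIP3, 193509 for PGK1 and 1337 for GAPDH. Capitals mark every match to ACGTG or GCGTG on either strand. CACGTG reads as ACGTG on both strands and counts as 2 overlapping matches.
ANKRD37: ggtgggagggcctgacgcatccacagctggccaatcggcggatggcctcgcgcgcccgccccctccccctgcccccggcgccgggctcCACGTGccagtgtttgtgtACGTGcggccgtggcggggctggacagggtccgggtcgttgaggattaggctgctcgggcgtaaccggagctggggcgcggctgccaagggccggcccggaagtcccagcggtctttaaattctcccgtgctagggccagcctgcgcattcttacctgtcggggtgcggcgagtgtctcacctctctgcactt
BNIP3: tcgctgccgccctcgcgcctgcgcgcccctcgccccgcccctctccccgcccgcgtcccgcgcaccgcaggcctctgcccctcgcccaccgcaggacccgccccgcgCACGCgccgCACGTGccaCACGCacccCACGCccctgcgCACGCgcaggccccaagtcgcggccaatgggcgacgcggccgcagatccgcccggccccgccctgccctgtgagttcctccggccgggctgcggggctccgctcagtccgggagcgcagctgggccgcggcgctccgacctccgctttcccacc
PGK1: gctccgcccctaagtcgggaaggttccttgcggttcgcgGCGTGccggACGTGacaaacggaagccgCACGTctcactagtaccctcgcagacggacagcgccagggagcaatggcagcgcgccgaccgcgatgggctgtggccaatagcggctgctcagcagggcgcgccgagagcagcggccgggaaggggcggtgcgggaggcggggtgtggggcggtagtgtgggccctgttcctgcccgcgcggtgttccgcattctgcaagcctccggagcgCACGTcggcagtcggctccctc
GAPDH: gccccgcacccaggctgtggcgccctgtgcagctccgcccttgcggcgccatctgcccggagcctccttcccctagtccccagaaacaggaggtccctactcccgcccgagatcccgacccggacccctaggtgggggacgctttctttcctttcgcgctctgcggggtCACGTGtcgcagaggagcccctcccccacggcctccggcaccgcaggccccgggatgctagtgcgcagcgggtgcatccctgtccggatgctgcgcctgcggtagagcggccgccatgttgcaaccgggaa

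The ANKRD37 window lies at chr4:185396591-185396890 on the plus strand and holds 3 matches. The BNIP3 window lies at chr10:131981874-131982173 on the minus strand and holds 6. The PGK1 window lies at chrX:78103998-78104297 on the plus strand and holds 4. The GAPDH window lies at chr12:6535014-6535313 on the plus strand and holds 2, which overlap. Of the 40 genes, 34 matched the promoter table. At least 1 match stood in 12 of 15 matched windows of the HIF arm and in 13 of 19 of the glycolysis arm, against 48.4% of all 35116 windows of that length. For ACGTG alone the numbers were 6 of 15, 8 of 19 and 21.4%. A match is a description of the letters and says nothing of binding.

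In A375-BIR, none of these genes changed past the threshold with dabrafenib. With edgeR's quasi-likelihood test, 0 of the 38 tested genes were called (an adjusted p under 0.05 by Benjamini-Hochberg over all genes), where 2.46% of the 10236 genes tested were called, 1.36% higher and 1.1% lower. In bulk RNA of a line, fewer cells expressing a gene and less RNA per cell cannot be told apart. DESeq2 also called 0. An unadjusted edgeR p under 0.05 was found for 6 of the 38. The share of all genes at that unadjusted threshold was not counted. The 2.46% above is for adjusted p and cannot be set beside these 6. The median log2 change was -0.01 in the HIF arm and -0.16 in the glycolysis arm, against 0.02 over all genes tested. Changes spanned -0.47 for the triose phosphate isomerase TPI1 to 1.51 for the lactate exporter SLC16A3 on the log2 scale.

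The HIF alpha subunits had different values in that comparison. HIF1A stood at 479.8, 787 and 538 CPM in A375-BIR with dabrafenib, against 679.6, 579 and 807 CPM with DMSO, and the groups overlapped (log2 change -0.19 ± 0.18, SE). EPAS1 stood at 39.0, 31.5 and 38.8 CPM with dabrafenib, against 21.2, 14.1 and 18.6 CPM with DMSO. These EPAS1 groups did not overlap, but the log2 change of 1.02 ± 0.30 missed the threshold (edgeR adjusted p = 0.0543). PDK1, the kinase that shuts pyruvate dehydrogenase, had 96.2, 78.7 and 77.6 CPM with dabrafenib, against 47.5, 58.5 and 59.2 CPM with DMSO (log2 change 0.66 ± 0.21, edgeR adjusted p = 0.0843). Its groups were also apart. SLC16A3 had 22.8, 10.5 and 31.1 CPM with dabrafenib, against 10.2, 2.02 and 10.2 CPM with DMSO (edgeR adjusted p = 0.0745).

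Among the other glycolytic genes of A375-BIR, differences were small. GAPDH, the enzyme that oxidises glyceraldehyde phosphate, had 3655, 4045 and 4945 CPM with dabrafenib, against 3767, 3544 and 4750.1 CPM with DMSO. The glucose transporter SLC2A1 had 162, 194 and 186 CPM with dabrafenib, against 177, 179 and 201 CPM with DMSO, a log2 change of -0.05 ± 0.17. TPI1 had 355, 360.4 and 264 CPM with dabrafenib, against 461, 434 and 477 CPM with DMSO. The TPI1 groups did not overlap, and its log2 change of -0.47 ± 0.17 had an edgeR adjusted p of 0.134. Of the 14 glycolytic enzymes tested, 10 had a negative log2 change and 4 a positive one, and none was called.

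The A375-BIR dabrafenib libraries were spread, and the second of them weighed most on the calls of this comparison. A chi-square per degree of freedom between 2 libraries is near 1 if they differ by counting error alone. It was 4.26 to 4.89 among A375-BIR dabrafenib libraries and 1.29 to 1.74 among those with DMSO. The third dabrafenib library was the lowest of its 3 for 11 of 18 HIF-arm genes, against 3755 of all 10236 genes tested. The second A375-BIR dabrafenib library was the highest of its 3 for 12 of 18 HIF-arm genes, against 35.2% of all genes tested. Its median log2 distance from the other libraries of the group was 0.58 over those 18 genes and 0 over all genes. In the glycolysis arm it was the highest for 8 of 20. HILPDA, which inhibits lipid droplet breakdown, reached 136 CPM in that library against 68.5 and 46.6 CPM in the other A375-BIR dabrafenib libraries. The vasodilator peptide gene ADM reached 182 CPM there against 94.2 and 72.5 CPM. Without that library, edgeR called 7 of the 38 genes, where 558 of all 10261 genes tested were called, against 252 of 10236 with it. EPAS1, SLC16A3 and PDK1 were higher with dabrafenib (log2 changes 1.10, 1.78 and 0.73). SLC2A3, TPI1, P4HA1 and HILPDA were lower (-0.82, -0.53, -0.54 and -0.76). The cause of that library's levels was not tested.

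**Figure D1:**
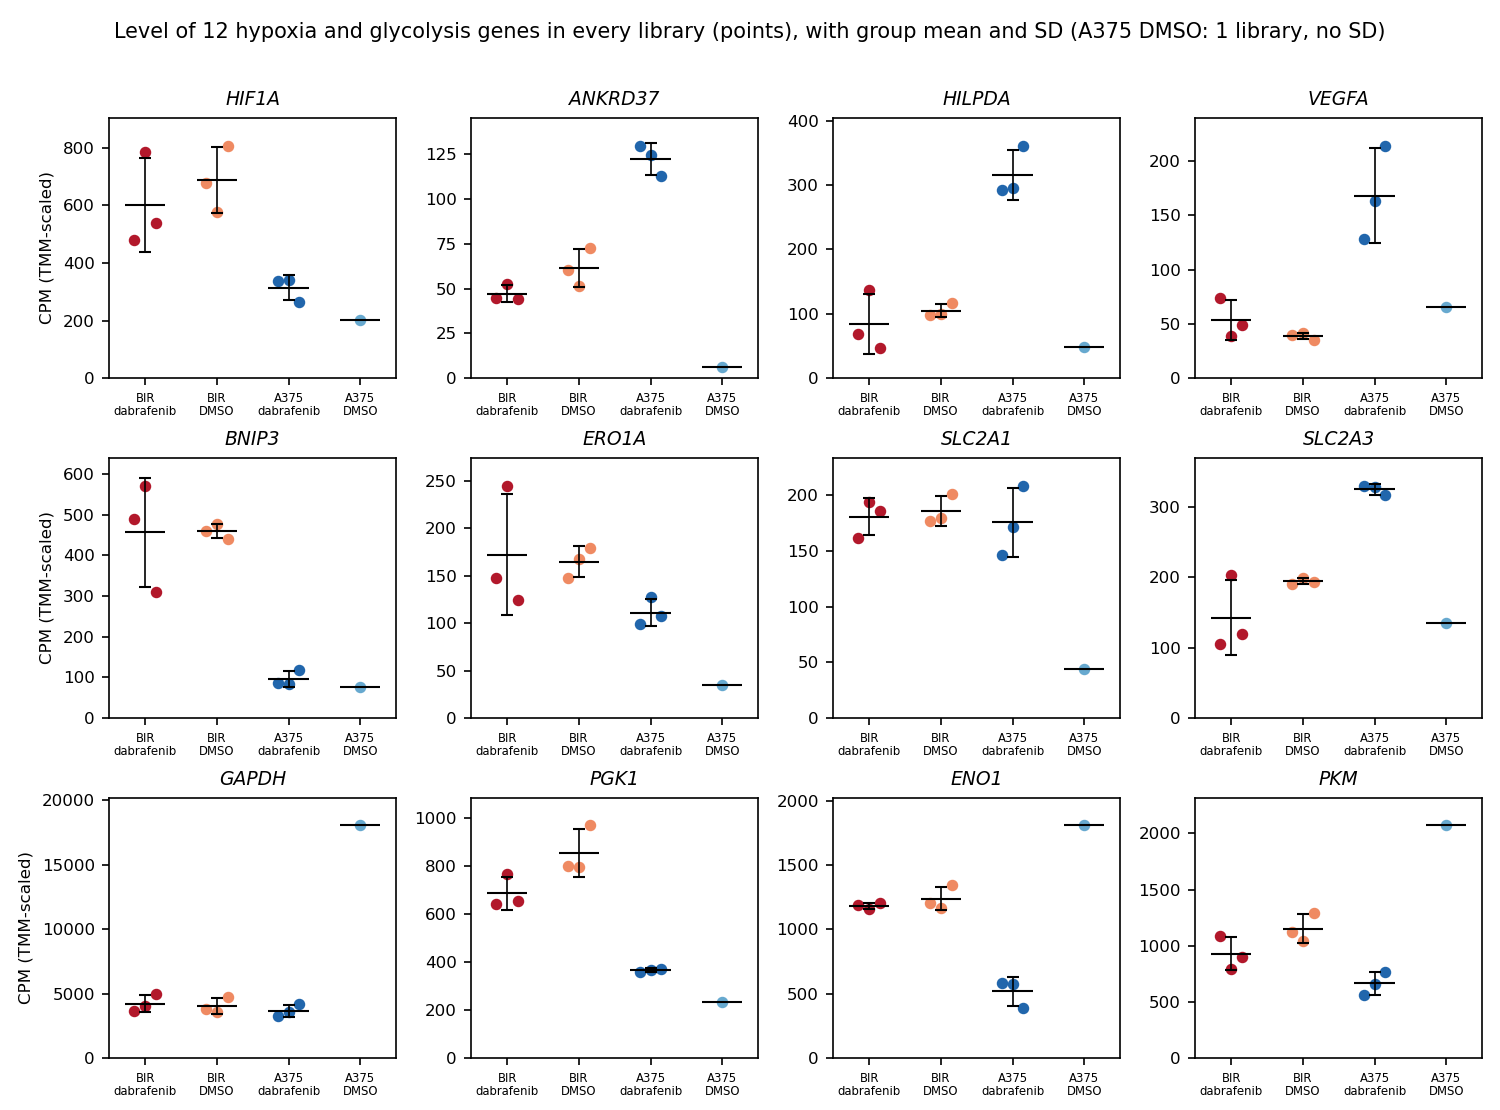
Levels in CPM (vertical axes, each panel with its own scale) of 12 hypoxia and glycolysis genes in every library, by group, with the group mean as a line and the SD as a bar. BIR on the axes is A375-BIR, and A375 with DMSO is 1 library with no SD. ANKRD37 and HILPDA are highest in A375 with dabrafenib, BNIP3 is higher in both A375-BIR groups than in both A375 groups, and GAPDH stands at 18056 CPM in the A375 DMSO library alone.

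With both lines in dabrafenib, all libraries share a run stamp, and the lines differed in many of these genes. A375-BIR was higher than A375 for 16 of 38 genes, lower for 7 and past the threshold in neither direction for 15. Over all genes tested 42.7% were called, 22.6% higher and 20.2% lower in A375-BIR. The glycolysis arm had 10 of 20 genes higher and 2 lower, with a median log2 difference of 0.52, against 0.04 over all genes. The HIF arm was divided, with 6 of 18 higher, 5 lower and a median of -0.04.

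Of the alpha-subunit genes, HIF1A was higher in A375-BIR: it had 479.8, 787 and 538 CPM in A375-BIR with dabrafenib, against 336, 341 and 265 CPM in A375 with dabrafenib. The groups did not overlap, and the log2 difference was 0.91 ± 0.19 (edgeR adjusted p = 0.000227). HIF1A overlaps the antisense genes HIF1A-AS1 and HIF1A-AS2. Reads that fitted more than 1 gene were set aside as ambiguous, at 0.18% to 0.36% of each human library's total. Since the strand setting of the counting is not given, which reads of the overlap were kept or lost cannot be told here. The same limit holds for other members that overlap a gene on the other strand, such as ANKRD37 (UFSP2), CA9 (ARHGEF39), VEGFA and BNIP3. On the same strand PGK1 overlaps ATP7A and ENO2 overlaps LRRC23. EPAS1 in A375 with dabrafenib stood at 47.4, 29.01 and 22.6 CPM, overlapping the A375-BIR values above (log2 difference 0.04 ± 0.32). EGLN1, the main prolyl hydroxylase that senses oxygen and itself a HIF target, had 50.5, 42.0 and 41.4 CPM in A375-BIR with dabrafenib, against 37.1, 44.6 and 16.9 CPM in A375 with dabrafenib. The EGLN1 groups overlapped (log2 difference 0.32 ± 0.32). EGLN3, a related hydroxylase, had 13 counts over all 10 libraries and was not tested: it stood at 0.952, 0 and 2.59 CPM in A375-BIR with dabrafenib, at 0, 0 and 3.39 CPM in A375-BIR with DMSO, at 2.06, 4.46 and 0 CPM in A375 with dabrafenib and at 3.77 CPM in A375 with DMSO.

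Among the HIF targets with counts in both lines, the largest difference in favour of A375-BIR was that of BNIP3, a mitophagy receptor. BNIP3 had 489, 572 and 311 CPM in A375-BIR with dabrafenib, against 86.6, 82.6 and 118 CPM in A375 with dabrafenib. Each A375-BIR library was above every A375 library, and the log2 difference was 2.33 ± 0.22 (5.03-fold, edgeR adjusted p = 3.74e-11). BNIP3 has 39 named pseudogenes in the annotation. Reads with more than 1 alignment were deposited apart from the gene counts and were left out. Reads that align equally well to BNIP3 and a pseudogene are thus missing from its counts. Its relative BNIP3L, also a mitophagy receptor, had 132, 209.9 and 163 CPM in A375-BIR against 99.0, 132 and 124 CPM in A375, both with dabrafenib. The lowest A375-BIR library of BNIP3L lay next to the highest A375 library, and its log2 difference of 0.51 ± 0.21 (edgeR adjusted p = 0.0465) lost its call in 12 of 17 alternatives, without any 1 of the A375 dabrafenib libraries (0.37 to 0.62) among them.

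NDRG1, a stress-responsive gene induced by hypoxia, had 412, 644 and 295 CPM in A375-BIR with dabrafenib, against 210.3, 239 and 214 CPM in A375 with dabrafenib. The groups were apart (log2 difference 1.03 ± 0.21, edgeR adjusted p = 0.000114). CA9 encodes the cell-surface carbonic anhydrase IX, a widely used marker of HIF activity. It had 8.57, 20.99 and 18.1 CPM in A375-BIR with dabrafenib and 7.63, 10.1 and 5.08 CPM in A375-BIR with DMSO, and 0 counts in all 4 A375 libraries. In dabrafenib this was 28 counts against 0, or 5.16-fold higher in A375-BIR when 3 counts over the 3 A375 libraries (2.70 CPM) take the place of 0. That value leaves out the counting error of the 28 counts and the spread between libraries. ERO1A, an oxidase of protein folding in the endoplasmic reticulum, had 148, 245 and 124 CPM in A375-BIR with dabrafenib, against 99.0, 127 and 107 CPM in A375 with dabrafenib. The ERO1A groups overlapped, and its log2 difference of 0.63 ± 0.22 (edgeR adjusted p = 0.0204) was 0.32 without the second A375-BIR dabrafenib library, with the call lost.

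Other HIF targets were higher in A375 than in A375-BIR. HILPDA had 68.5, 136 and 46.6 CPM in A375-BIR with dabrafenib, against 293, 295 and 361 CPM in A375 with dabrafenib, a log2 difference of -1.87 ± 0.23 (edgeR adjusted p = 5.58e-08). VEGFA, the main growth factor of blood vessels, had 74.3, 38.5 and 49.2 CPM in A375-BIR with dabrafenib, against 128, 163 and 214 CPM in A375 with dabrafenib (-1.49 ± 0.24, edgeR adjusted p = 2.75e-06). ANKRD37, a small ankyrin-repeat gene used as a hypoxia marker, had 44.7, 52.5 and 44.0 CPM in A375-BIR with dabrafenib, against 129.9, 125 and 113 CPM in A375 with dabrafenib. In all 3 genes each A375 library was above each A375-BIR library, and for ANKRD37 the log2 difference was -1.40 ± 0.23 (edgeR adjusted p = 4.6e-06).

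P4HA2 encodes a collagen prolyl hydroxylase, an enzyme distinct from the HIF prolyl hydroxylases. It had 28.6, 45.5 and 23.3 CPM in A375-BIR with dabrafenib, against 63.9, 69.2 and 73.3 CPM in A375 with dabrafenib (log2 difference -1.05 ± 0.28, edgeR adjusted p = 0.00255). KDM3A, a histone demethylase induced by HIF, had 43.8, 38.5 and 44.0 CPM in A375-BIR with dabrafenib, against 86.6, 105 and 45.1 CPM in A375 with dabrafenib. The third A375 library lay just above the A375-BIR libraries of KDM3A, and the log2 difference was -1.01 ± 0.26 (edgeR adjusted p = 0.0018). The remaining 5 HIF targets tested, ADM, P4HA1, PDK1, PFKFB3 and PFKFB4, were not called and had log2 differences between -0.82 (PFKFB4) and 0.03 (PDK1). PFKFB3 and PFKFB4 make the activator of phosphofructokinase.

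In glucose transport the 2 genes differed. SLC2A3, a high-affinity transporter, had 105, 203 and 119 CPM in A375-BIR with dabrafenib, against 330.0, 328 and 316 CPM in A375 with dabrafenib. All A375 libraries were above all A375-BIR libraries (log2 difference -1.21 ± 0.20, edgeR adjusted p = 4.16e-06). SLC2A1, the main basal transporter, had 162 to 194 CPM in A375-BIR against 146 to 209 CPM in A375, both with dabrafenib, and a log2 difference of 0.07 ± 0.19.

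Of the 14 glycolytic enzymes tested, 8 were higher in A375-BIR with dabrafenib than in A375 with dabrafenib, 1 was lower and 5 were not called. The enolase ENO1 had 1193, 1156 and 1201 CPM in A375-BIR, against 584, 578 and 389 CPM in A375. ENO1 was thus about even within A375-BIR and apart from A375, with a log2 difference of 1.17 ± 0.18 (2.25-fold, edgeR adjusted p = 2.22e-06). The aldolase ALDOC had 102, 105 and 54.3 CPM in A375-BIR, against 41.2, 26.8 and 45.1 CPM in A375 (1.32 ± 0.28, edgeR adjusted p = 0.000204). PGK1, which makes the first ATP of the payoff phase, had 639.7, 764 and 652 CPM in A375-BIR, against 357, 366 and 372 CPM in A375. Its groups were far apart relative to their spread (0.91 ± 0.17, edgeR adjusted p = 5.23e-05).

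The phosphofructokinase genes, which encode the committed step, did not move together. PFKL had 54.3, 40.2 and 41.4 CPM in A375-BIR with dabrafenib, against 24.7, 29.01 and 22.6 CPM in A375 with dabrafenib (log2 difference 0.84 ± 0.32, edgeR adjusted p = 0.0306). PFKP had 149, 94.5 and 109 CPM in A375-BIR, against 72.2, 87.0 and 56.4 CPM in A375 (0.68 ± 0.23, edgeR adjusted p = 0.0143). Both were higher in A375-BIR with no overlap. PFKM had 22.8, 19.2 and 25.9 CPM in A375-BIR, against 37.1, 51.3 and 28.2 CPM in A375, and was the 1 enzyme called lower (-0.87 ± 0.33, edgeR adjusted p = 0.0331).

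Hexokinase HK1, the entry step, had 181, 110.2 and 166 CPM in A375-BIR with dabrafenib, against 105, 100.4 and 102 CPM in A375 with dabrafenib (log2 difference 0.58 ± 0.21, edgeR adjusted p = 0.0226). The isomerase GPI had 434, 373 and 424 CPM in A375-BIR, against 245, 304 and 310.3 CPM in A375 (0.54 ± 0.17, edgeR adjusted p = 0.0115). The pyruvate kinase gene PKM had 1088, 796 and 898 CPM in A375-BIR, against 563, 663 and 767 CPM in A375 (0.50 ± 0.18, edgeR adjusted p = 0.0259). In all 3 genes the groups did not overlap, but the nearest libraries were close in HK1 and PKM. HK2, ALDOA, TPI1, GAPDH and ENO2 were not called, with log2 differences between -0.25 (ALDOA) and 0.92 (HK2). PGAM1, which has 13 named pseudogenes, had 51 counts in all and was not tested: 3.81, 15.7 and 12.9 CPM in A375-BIR with dabrafenib, 10.2, 10.1 and 10.2 CPM in A375-BIR with DMSO, 6.19, 2.23 and 5.64 CPM in A375 with dabrafenib and 0 in A375 with DMSO. Reads that align equally well to PGAM1 and a pseudogene are missing from these counts, so a low count need not mean low RNA.

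Lactate dehydrogenase interconverts pyruvate and lactate. Its subunit gene LDHA had 846, 962 and 634 CPM in A375-BIR with dabrafenib, against 487, 509 and 547 CPM in A375 with dabrafenib (log2 difference 0.68 ± 0.18, edgeR adjusted p = 0.00264). LDHB had 459.8, 439 and 429.6 CPM in A375-BIR, against 305, 326 and 333 CPM in A375 (0.47 ± 0.17, edgeR adjusted p = 0.0238). Both subunit genes were higher in every A375-BIR library than in any A375 library. The lactate transporters SLC16A1 and SLC16A3 had log2 differences of 0.10 ± 0.17 and 1.18 ± 0.56 and were not called.

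Of the 23 calls between the lines in dabrafenib, 13 were kept under each of the 17 alternatives run: HIF1A, ANKRD37, HILPDA, CA9, VEGFA, NDRG1, BNIP3, KDM3A, SLC2A3, ALDOC, PGK1, ENO1 and LDHA. The calls of the smaller enzyme differences rested on single libraries. Without the first A375 dabrafenib library 14 genes were called, and BNIP3L, PFKL, PFKP, PKM, HK1, LDHB, PFKM, GPI and ERO1A were not, at log2 differences of 0.37, 0.79, 0.65, 0.39, 0.60, 0.43, -0.97, 0.42 and 0.52. Without the first A375-BIR dabrafenib library PFKL, PFKP, PKM, HK1, LDHB and PFKM lost their calls at 0.64, 0.42, 0.36, 0.39, 0.44 and -0.90, and HK2 gained one at 1.33. Without the second A375 dabrafenib library PFKL, PKM, HK1, LDHB and PFKM lost theirs at 0.95, 0.50, 0.55, 0.48 and -0.62, and without the third PFKL and PFKP at 0.80 and 0.60. Without the second A375-BIR dabrafenib library PFKM lost its call at -0.79, while ADM and SLC16A3 gained one at -0.67 and 1.46. Without the third, TPI1 and PFKFB4 gained one at 0.46 and -1.12, and SLC16A3 did so at 1.67 without the third A375 dabrafenib library.

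**Figure D2:**
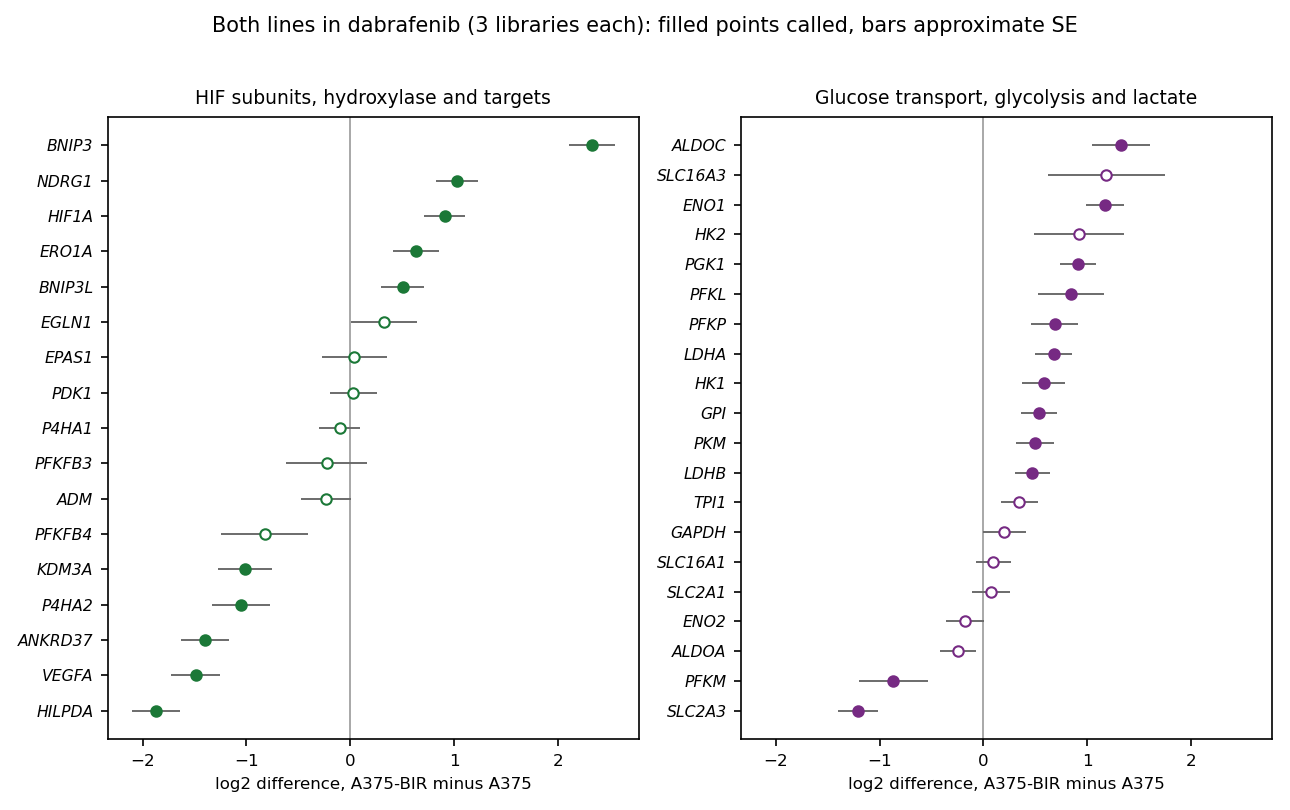
Log2 difference of A375-BIR minus A375, both with dabrafenib (horizontal axis), for 37 of the tested genes with an approximate SE as a bar, filled where called at an adjusted p under 0.05. CA9, with no counts in A375, is left out. BNIP3 lies farthest to the right at 2.33 and HILPDA farthest to the left at -1.87, and most glycolytic enzymes lie right of 0.

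In A375, dabrafenib was followed by opposite differences in the 2 arms, in a comparison of 3 libraries with 1 library of another run stamp. Of 18 HIF-arm genes 9 were higher with dabrafenib, 1 was lower and 8 were not called, with a median log2 difference of 0.80. Of 20 glycolysis-arm genes 5 were higher and 12 lower, with a median of -1.01. Over all genes tested 38.6% were called, 17.9% higher and 20.7% lower, and the median was 0.00. Of the 15 HIF targets 8 were higher and 1 was lower (median 0.77), while of the 14 glycolytic enzymes 3 were higher and 10 lower (median -1.34).

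ANKRD37 had the largest difference of the 38 genes in this comparison. It stood at 129.9, 125 and 113 CPM in A375 with dabrafenib, against 6.28 CPM with DMSO, a log2 difference of 4.27 ± 0.39 (19.3-fold, edgeR adjusted p = 8.85e-11). HILPDA stood at 293, 295 and 361 CPM with dabrafenib, against 49.0 CPM with DMSO (2.66 ± 0.33, edgeR adjusted p = 1.57e-07). VEGFA stood at 128, 163 and 214 CPM with dabrafenib, against 65.3 CPM with DMSO (1.30 ± 0.29, edgeR adjusted p = 0.000544). These 3 genes were also lower in A375-BIR with dabrafenib than in A375 with dabrafenib, a comparison within 1 run stamp.

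The other targets called higher with dabrafenib in A375 were ADM (log2 difference 1.99), PDK1 (1.70), ERO1A (1.66), BNIP3L (1.15) and the collagen prolyl hydroxylase P4HA1 (0.77), together with the HIF hydroxylase EGLN1 (1.53). PFKFB3 was the only HIF target called lower, at -0.95 ± 0.38 (edgeR adjusted p = 0.0437). HIF1A, with 203 CPM in the DMSO library, had a log2 difference of 0.65 ± 0.27 and EPAS1, with 20.1 CPM there, one of 0.82 ± 0.39, and neither was called (edgeR adjusted p = 0.0564 and 0.0951). NDRG1, BNIP3, P4HA2, KDM3A and PFKFB4 were not called either, with log2 differences between -0.21 (PFKFB4) and 0.73 (KDM3A). CA9 had no counts on either side. Without the second A375 dabrafenib library EGLN1, P4HA1 and PFKFB3 lost their calls, at 1.31, 0.69 and -0.92, and PFKFB3 also without the first, at -0.76. Without the third, HIF1A and KDM3A were called, at 0.74 and 0.89. Both were also called without any 1 of the A375-BIR dabrafenib libraries (0.65 to 0.66 and 0.73 to 0.75). With only the libraries of the comparison HIF1A (0.66), KDM3A (0.74) and EPAS1 (0.82) were called. HIF1A was called as well when a mean count of 50 was required (0.78).

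Glucose transporters and glycolytic enzymes diverged in A375. SLC2A1 stood at 146, 172 and 209 CPM with dabrafenib, against 44.0 CPM with DMSO (log2 difference 1.95 ± 0.28, edgeR adjusted p = 7.87e-07), and SLC2A3 was higher by 1.28 ± 0.26 (edgeR adjusted p = 0.000209). GAPDH stood at 3273, 3553 and 4186 CPM with dabrafenib, against 18056 CPM with DMSO, a log2 difference of -2.30 ± 0.27 (edgeR adjusted p = 1.62e-08). GAPDH has 62 named pseudogenes, and reads that align equally well to GAPDH and a pseudogene are missing from its counts. The other enzymes called lower with dabrafenib were PFKL (-1.94), ENO1 (-1.78), PKM (-1.65), PFKP (-1.60), ALDOC (-1.56), TPI1 (-1.50), HK1 (-1.19), GPI (-0.83) and ALDOA (-0.60).

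The 3 enzymes called higher were HK2 (1.63), PGK1 (0.64) and the neuronal-type enolase ENO2 (0.60), and each lost its call under several alternatives. HK2 lost it without the first or second A375 dabrafenib library (1.31 and 1.64), ENO2 without the second or the third (both 0.54), and PGK1 and ALDOA without any 1 of the 3 (0.63 to 0.66 and -0.62 to -0.56). LDHB and SLC16A3 were lower, at -1.25 ± 0.21 and -1.82 ± 0.57, and LDHA and SLC16A1 were not called at 0.14 ± 0.25 and -0.27 ± 0.21. SLC16A3, with only 2, 4 and 4 counts in A375 with dabrafenib, lost its call without the first of these libraries (-1.32). Of the 27 calls, 15 were kept under each of the 16 alternatives run, among them ANKRD37, HILPDA, ADM, VEGFA, SLC2A1, SLC2A3, GAPDH, ENO1, PKM and TPI1.

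**Figure D3:**
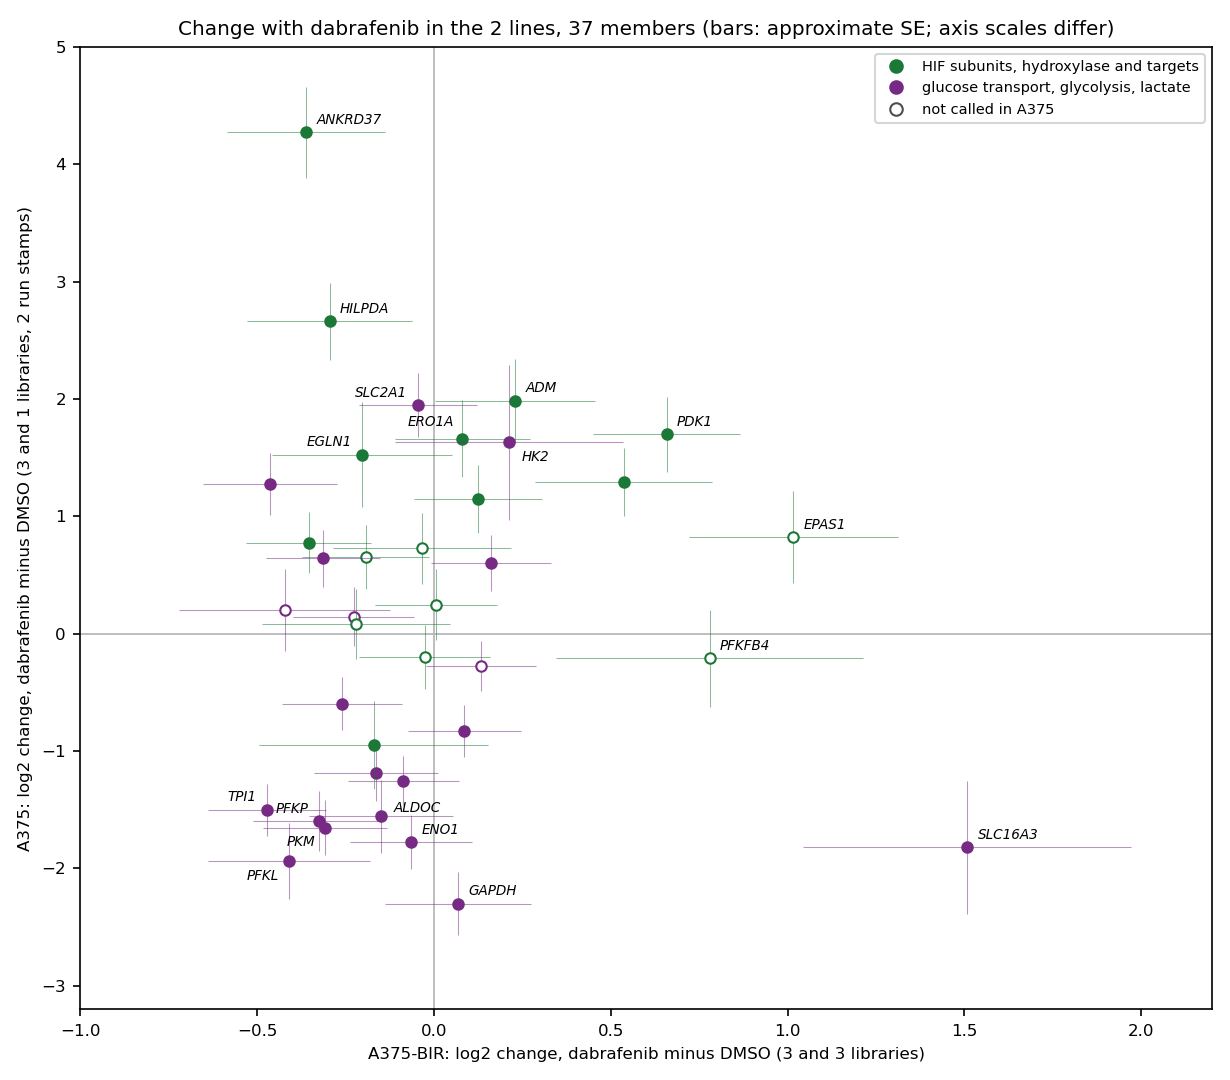
Log2 change with dabrafenib over DMSO in A375-BIR (horizontal axis) and in A375 (vertical axis, with a wider scale) for 37 genes, with approximate SE as bars. Filled points are called in A375, and CA9 is left out. No gene was called in A375-BIR, and in A375 HIF-arm genes span -0.95 to 4.27 and glycolysis-arm genes -2.30 to 1.95.

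The position of the lone A375 DMSO library relative to the 9 libraries of the other run stamp differed between the arms. It lay below all 9 for 9 of 18 HIF-arm genes and above all 9 for 2, and below all 9 for 4 of 20 glycolysis-arm genes and above all 9 for 13. Over all genes tested it lay below all 9 for 18.1% and above all 9 for 23.1%. Among the 14 enzymes it was above all 9 for 10. GAPDH spanned 3273 to 4945 CPM in the 9 libraries of both lines and SLC2A1 spanned 146 to 209 CPM, with A375 with dabrafenib overlapping A375-BIR in both genes.

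In DMSO the lines were compared through the same lone library. A375-BIR with DMSO was higher than A375 with DMSO for 16 of 38 genes and lower for 13, where 51.8% of all genes tested were called, 25.1% higher and 26.7% lower. In the HIF arm 12 of 18 genes were higher and 4 lower (median log2 difference 1.08), and in the glycolysis arm 4 of 20 were higher and 9 lower (median -0.41), against a median of 0.01 over all genes. HIF1A had 679.6, 579 and 807 CPM in A375-BIR with DMSO, against 203 CPM in A375 with DMSO (1.75 ± 0.28, edgeR adjusted p = 2.51e-06). BNIP3 had 461, 477 and 442 CPM in A375-BIR with DMSO, against 77.2 CPM in A375 with DMSO (2.57 ± 0.29, edgeR adjusted p = 2.98e-09). For both genes this is the direction of the difference in dabrafenib, which was measured within 1 run stamp.

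CA9 had 22 counts in A375-BIR with DMSO against 0 in A375 with DMSO, or 4.23-fold higher with 3 counts (1.88 CPM) in place of 0. The counting error of the 22 counts is left out of that value. ANKRD37 had 60.2, 51.4 and 72.8 CPM in A375-BIR with DMSO, against 6.28 CPM in A375 with DMSO, a log2 difference of 3.23 ± 0.40 (edgeR adjusted p = 1.84e-08). HILPDA had 98.3, 99.8 and 117 CPM in A375-BIR with DMSO, against 49.0 CPM in A375 with DMSO (1.08 ± 0.32, edgeR adjusted p = 0.0051). ANKRD37 and HILPDA were thus higher in A375-BIR with DMSO and lower in A375-BIR with dabrafenib, each relative to A375 in the same medium. VEGFA was lower in A375-BIR in both settings, at -0.73 ± 0.29 with DMSO (edgeR adjusted p = 0.0344). ENO1 had a log2 difference of -0.55 ± 0.23 with DMSO (edgeR adjusted p = 0.0478), opposite in sign to the 1.17 with dabrafenib, and lost its call under several alternatives. Without any 1 of the 3 A375-BIR DMSO libraries neither VEGFA (-0.77 to -0.68) nor ENO1 (-0.60 to -0.50) was called.

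The other genes with a call in dabrafenib, and EGLN1, which was not called between the lines there, had the following levels in DMSO. The values are again set against the lone A375 library. EGLN1 had 40.7, 47.4 and 77.9 CPM in A375-BIR with DMSO, against 12.6 CPM in A375 with DMSO (log2 difference 2.05 ± 0.39, edgeR adjusted p = 3.81e-05). NDRG1 had 474, 452 and 459 CPM in A375-BIR, against 254 CPM in A375 (0.86 ± 0.27). BNIP3L had 153, 165 and 137 CPM in A375-BIR, against 52.7 CPM in A375 (1.53 ± 0.27). All 3 genes were called higher in A375-BIR. ERO1A, also called higher, had 147, 167 and 179 CPM in A375-BIR, against 35.2 CPM in A375 (2.21 ± 0.31). VEGFA had 39.8, 41.3 and 35.5 CPM in A375-BIR, against 65.3 CPM in A375. P4HA2 had 44.9, 34.3 and 32.2 CPM in A375-BIR, against 64.0 CPM in A375 (-0.75 ± 0.28). P4HA2 was thus called lower in A375-BIR in both media, but in DMSO its call was lost without the second or the third A375-BIR library (both -0.68). KDM3A had 49.1, 43.3 and 33.9 CPM in A375-BIR, against 51.5 CPM in A375, and was not called (-0.25 ± 0.29).

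In the glycolysis arm, PGK1 had 798, 794 and 968 CPM in A375-BIR with DMSO, against 234 CPM in A375 with DMSO (log2 difference 1.87 ± 0.25). LDHA had 875, 898 and 1104 CPM in A375-BIR, against 463 CPM in A375 (1.05 ± 0.26). Both were called higher in A375-BIR, as in dabrafenib. PKM had 1122, 1043 and 1292 CPM in A375-BIR, against 2070.3 CPM in A375 (-0.85 ± 0.23). LDHB had 431, 485 and 499 CPM in A375-BIR, against 762.3 CPM in A375 (-0.69 ± 0.21). ENO1 had 1208, 1167 and 1342 CPM in A375-BIR, against 1807 CPM in A375. These 3 were called lower in A375-BIR with DMSO and higher with dabrafenib. PFKL had 66.9, 48.4 and 74.5 CPM in A375-BIR, against 100.5 CPM in A375 (-0.69 ± 0.25), and PFKP had 168, 141 and 142 CPM, against 227 CPM (-0.59 ± 0.22). The PFKL call was lost without the second A375-BIR DMSO library (-0.52), and that of PFKP without the second (-0.54) or the third (-0.55).

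HK1, GPI, PFKM, ALDOC and SLC2A3 were not called between the lines in DMSO. HK1 had 175, 161 and 181 CPM in A375-BIR with DMSO, against 234 CPM in A375 with DMSO. GPI had 388, 376 and 398 CPM in A375-BIR, against 504 CPM in A375. ALDOC had 103, 94.8 and 105 CPM in A375-BIR, against 107 CPM in A375. In these 3 genes each A375-BIR library was below the A375 library. PFKM had 38.1, 23.2 and 27.1 CPM in A375-BIR, against 35.8 CPM in A375, which lay within the A375-BIR range. SLC2A3 had 191, 199 and 193 CPM in A375-BIR, against 134 CPM in A375, which lay below it. SLC2A3 gained a call without any 1 of the 3 A375-BIR dabrafenib libraries (0.52 to 0.54) and HK1 without the second of them (-0.43).

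The difference between the dabrafenib responses of the lines, A375-BIR minus A375, was tested as an interaction in the same fit. It was called for 22 of 38 genes, 11 above 0 and 11 below, where 22.6% of all genes tested were called, 12.7% above and 9.87% below. In the HIF arm 8 of 18 were called, all below 0, with a median of -0.80. In the glycolysis arm 11 of 20 were above 0 and 3 below, with a median of 0.97, against 0.04 over all genes. The 3 below 0 were the transporters SLC2A1 (-1.996 ± 0.32) and SLC2A3 (-1.74 ± 0.32) and the enzyme PGK1 (-0.96 ± 0.29). Of the 14 enzymes 9 were above 0, led by GAPDH at 2.37 ± 0.34 (edgeR adjusted p = 4.96e-06) and ENO1 at 1.71 ± 0.29 (edgeR adjusted p = 5.53e-05). These values share the lone A375 DMSO library with the A375 response. Single libraries decided some calls: EGLN1 lost its call without the second A375 dabrafenib library (-1.51), as did ALDOC (1.17), GPI without the first (0.80) and PGK1 without the third A375-BIR DMSO library (-0.86). BNIP3L lost its call without the first (-1.02) or the second (-0.95) A375-BIR DMSO library, the first A375-BIR dabrafenib library (-0.84) or the second A375 dabrafenib library (-0.91). PDK1 lost its call without any 1 of 7 libraries, at -1.17 to -0.95. HIF1A, HK2 and VEGFA gained calls without 1 A375-BIR dabrafenib library: HIF1A without the second (-1.103) or the third (-0.78), HK2 without the second (-2.02) and VEGFA without the first (-1.16).

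**Figure D4:**
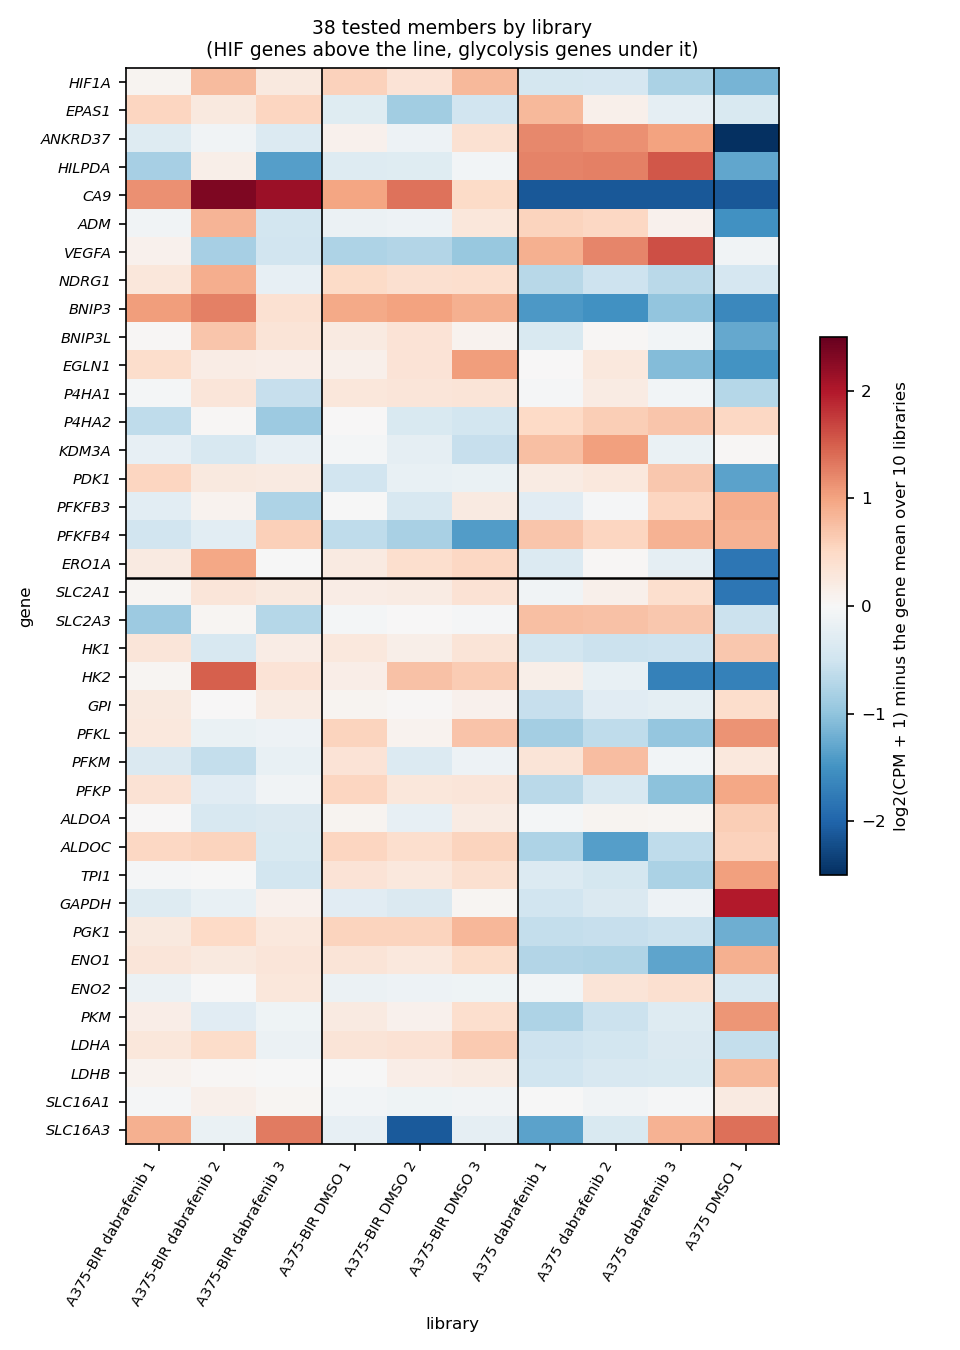
Log2 level of each tested gene in each library (columns, by group) relative to the gene's mean over all 10 libraries, with genes in rows by arm. The single A375 DMSO column is low for many HIF-arm genes and high for most glycolytic enzymes, and the A375-BIR columns differ little between dabrafenib and DMSO.

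Further genes of the same pathways were counted from lists of known pathway genes. Of 33 further HIF targets tested, 2 were higher and 1 was lower with dabrafenib in A375-BIR, where 2.46% of all genes tested were called (1.36% higher and 1.1% lower). The transferrin receptor TFRC had 155, 126 and 158 CPM with dabrafenib, against 74.6, 72.6 and 76.2 CPM with DMSO (log2 change 0.98, edgeR adjusted p = 0.00149), with no overlap. The secreted hormone gene STC1 had 133, 229 and 145 CPM with dabrafenib, against 289.8, 305 and 332 CPM with DMSO (-0.88, edgeR adjusted p = 0.00254), also with no overlap. STC2, its relative, had 310.3, 562 and 204 CPM with dabrafenib, against 164, 172 and 222 CPM with DMSO. Its groups overlapped, and its call (0.97, edgeR adjusted p = 0.0417) was lost without any 1 of the 3 A375-BIR DMSO libraries, the first A375-BIR dabrafenib library or the first or the third A375 dabrafenib library (0.88 to 1.102).

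Between the lines in dabrafenib 7 of these 33 were higher and 11 lower in A375-BIR, where 22.6% of all genes tested were higher and 20.2% lower. STC2 had 726 counts in A375-BIR with dabrafenib against 2 in A375 with dabrafenib, a ratio of 200.7 with an exact 95% counting interval of 55.4 to 1660.1. The haem oxygenase HMOX1 had 72.4, 63.0 and 59.5 CPM in A375-BIR with dabrafenib, against 592, 598 and 530.3 CPM in A375 with dabrafenib (log2 difference -3.12, edgeR adjusted p = 1.62e-16). WSB1, a ubiquitin ligase component, had 112, 122 and 122 CPM in A375-BIR, against 449.6, 538 and 666 CPM in A375 (-2.19, edgeR adjusted p = 1.22e-12). ANGPTL4, an inhibitor of lipoprotein lipase, had 7.62, 0 and 2.59 CPM in A375-BIR, against 140.2, 158 and 186 CPM in A375 (-5.10, edgeR adjusted p = 6.4e-14). In A375 with dabrafenib relative to its lone DMSO library, 11 of the 33 were higher and 3 lower, where 38.6% of all genes tested were called (17.9% higher and 20.7% lower).

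Of 15 further regulators of HIF and oxygen sensing, none changed past the threshold with dabrafenib in A375-BIR (2.46% of all genes did). Between the lines in dabrafenib 4 were higher and 6 lower in A375-BIR, where 42.7% of all genes tested were called (22.6% higher and 20.2% lower). The 4 with the smallest p were all lower: the coactivators EP300 (-1.17) and CREBBP (-0.97), the HIF partner ARNT2 (-1.74) and the ubiquitin ligase SIAH2 (-1.44), which acts on the hydroxylases. EP300 had 113, 122 and 129 CPM in A375-BIR with dabrafenib, against 268, 257 and 299 CPM in A375 with dabrafenib.

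Of 16 further glycolysis and pyruvate genes tested, out of 32 listed, none was called in the A375-BIR response (2.46% of all genes were), and 3 were higher and 4 lower in A375-BIR than in A375 in dabrafenib. That share is near the 42.7% called over all genes tested. PDK4, a second brake on pyruvate dehydrogenase, had 51.4, 52.5 and 77.6 CPM in A375-BIR with dabrafenib, against 301, 272 and 344 CPM in A375 with dabrafenib (log2 difference -2.37, edgeR adjusted p = 3.38e-12). BSG, the chaperone of the lactate transporters, and PDP1, the phosphatase that reopens pyruvate dehydrogenase, were higher in A375-BIR at 1.38 and 0.75, and BPGM, of the red-cell bisphosphoglycerate shunt, was lower at -2.10. Of 9 pentose phosphate genes none was called in the A375-BIR response, against the same 2.46%. Between the lines in dabrafenib the nucleotide precursor enzyme PRPS2 was higher in A375-BIR (log2 difference 1.07, edgeR adjusted p = 0.00458) and the transketolase TKT was lower (-0.45, edgeR adjusted p = 0.0376), a call lost under several alternatives, such as without the first (-0.51) or the third (-0.33) A375 dabrafenib library or the first (-0.48) or the second (-0.37) of A375-BIR.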

How the data were processed

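The authors deposited 1 file of raw read counts per gene for each library, made from QuantSeq 3′ tag libraries of 250 ng RNA and single-end reads of 100 bases, per the labels' protocols. The submitters' processing notes name the build hg38. The aligner, the counter, the annotation and the strand setting are not stated in the labels. Lines that name no gene (68.9% to 79.6% of each file's total) were left out. Reads with more than 1 alignment took 52.5% of the total in the A375 DMSO library and 40.0% to 49.4% in the other 9 human libraries. Reads on no annotated feature took 20.1% in the A375 DMSO library and 28.6% to 30.9% in the other 9. Whether this difference plays a part in the results was not tested. Symbols were found for 25148 of 33694 identifiers, and positions come from GENCODE 29.

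Genes were filtered with filterByExpr (minimum count 10), scaled with TMM factors and modelled by group in edgeR 4.0.16 (R 4.3.3, robust glmQLFit and glmQLFTest), using 10 libraries and leaving 6 residual degrees of freedom. A375 with DMSO, made by the study in 3 libraries, entered with 1, to which the fit gives the spread pooled over the other groups. Calls are at 0.05 after Benjamini-Hochberg adjustment over the 10236 genes tested. SE was taken as the size of the log2 change divided by the square root of F. DESeq2 1.42.0 was an alternative, as were other scaling, filters, thinning to 198690 counts, a replicate block and leaving out each library. The procedure was tested on simulated data. Intervals cover counting error only. Limits cover only the counting error of the group with 0 counts and take the counts of the other group as they are.

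The genes, the further lists and the rule for showing values were chosen with earlier results of these data known. Of the 40 genes, values in every library are given for those called within 1 run stamp, for HIF subunits and HIF hydroxylases, and otherwise where a result turns on them. Of the further lists, up to 4 called genes with the smallest p in each comparison within 1 run stamp are named, except 1 result that is not reported here.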

Additional observations from a re-analysis of the deposited data

Results flagged for a closer look

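The dabrafenib responses of the lines differed by the interaction test for 22 genes, and every one of these differences rests on the lone A375 DMSO library of another run stamp. Values are log2 differences of responses, A375-BIR minus A375. In the HIF arm they were -4.63 for ANKRD37, -2.96 for HILPDA, -1.76 for ADM, -1.73 for EGLN1, -1.58 for ERO1A, -1.13 for P4HA1, -1.04 for PDK1 and -1.02 for BNIP3L. For the glucose transporters they were -1.996 for SLC2A1 and -1.74 for SLC2A3. Among the enzymes PGK1 had -0.96, against 2.37 for GAPDH, 1.71 for ENO1, 1.53 for PFKL, 1.41 for ALDOC, 1.35 for PKM, 1.27 for PFKP, 1.03 for TPI1, 1.02 for HK1 and 0.91 for GPI. In lactate handling they were 3.33 for SLC16A3 and 1.17 for LDHB. Among the 22, SLC16A3 and PGK1 had groups that did not overlap in either line and values that went opposite ways. SLC16A3 was higher with dabrafenib in A375-BIR and lower in A375, and PGK1 the reverse, with neither change called in A375-BIR. SLC16A3 rested on few counts: 24, 6 and 12 in A375-BIR with dabrafenib and 12, 2 and 6 with DMSO. Its nearest A375-BIR libraries stood at 10.5 CPM with dabrafenib and 10.2 CPM with DMSO. In A375 it had 2, 4 and 4 counts with dabrafenib and 52 with DMSO.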

How the results depend on the processing

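No gene's called change turned its direction under the alternatives run. In the A375-BIR response the count of called genes went to 1 with no low-count filter (SLC16A3) and ranged from 0 to 7 when 1 library was left out, with 7 only without the second dabrafenib library. Between the lines in dabrafenib the count of 23 became 13 when a mean count of 50 was required (25 genes tested) and ranged from 14 to 25 with 1 library left out, the lowest without the first A375 dabrafenib library. In the A375 response the count of 27 became 16 with counts thinned to the smallest library (32 genes tested) and ranged from 20 to 29. Between the lines in DMSO the count of 29 became 19 under the mean-count filter and 14 after thinning, and ranged from 22 to 31. For the difference of responses the count of 22 became 9 with thinned counts and ranged from 18 to 24. Fewer genes were tested under the mean-count filter and after thinning, but BNIP3L, HK1, PKM and ERO1A also lost their calls between the lines in dabrafenib while still tested under that filter (0.40, 0.47, 0.38 and 0.52), and the cause was not tested. Over all genes, the 252 calls of the A375-BIR response were 106 with DESeq2, 125 with the comparison's own libraries, 137 under the mean-count filter, 70 after thinning, 106, 140 and 107 without the first, the second and the third DMSO library and 558 without the second dabrafenib library. The mean-count filter and thinning gave 1764 and 2539 calls between the lines in dabrafenib (4374 without them), 1669 and 1412 in the A375 response (3948), 1895 and 1863 between the lines in DMSO (5298) and 1133 and 587 for the difference (2313). DESeq2 gave 2485 for the A375 response and 1153 for the difference. Without the A375 DMSO library the A375 response, the lines in DMSO and the difference could not be fitted, and the difference has no fit with fewer groups than all 4. Correlations of deviations from the group mean ranged from -0.33 to 0.27 between same-numbered libraries of different groups. Between differently numbered ones they ranged from -0.25 to 0.38. Deviations within a group of 3 libraries constrain each other, so these values cannot tell whether same-numbered libraries were paired. With a replicate block the counts were 0, 23, 22, 22 and 18, in the order above.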
